A study of Mus musculus with 20 samples.

Results

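The genes described here are the 9 that make and load the classical MHC class I molecule in the mouse: the heavy chains H2-K1 and H2-D1, the light chain B2m, the peptide transporter subunits Tap1 and Tap2, the loading chaperone Tapbp (tapasin), and the immunoproteasome subunits Psmb8, Psmb9 and Psmb10. They were chosen by symbol, with earlier results of these data known. The shares over all probe sets given below are therefore descriptions and not a test of the set. The array annotation gives 1 of these symbols alone to 26 of the 45101 probe sets. After a filter that kept the brighter 50% of probe sets (a mean log2 value equal to a signal of 81.8), 15 of the 26 were tested among 22518, and every one of the 9 genes had at least 1. Each gene is represented by its brightest probe set. The other 11 probe sets fell below the filter, and 3 more that name a member beside other genes were left out.

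Each of the 20 arrays was hybridised with RNA from the left ventricle of a different mouse, all male and of the C57BL/6J strain. Mice arrived at 6 weeks of age and were acclimated for 2 weeks, and 5 groups of 4 were then fed for 4 weeks, so they were 12 weeks old at the end. The control group ate standard chow. The others ate that chow mixed with powdered tablets of pitavastatin calcium (4.5 mg/kg/day), pravastatin sodium (21.0 mg/kg/day), rosuvastatin calcium (10.9 mg/kg/day) or atorvastatin calcium hydrate (11.4 mg/kg/day). The hearts were normal, untreated except for the statin, and the question was how these cholesterol-lowering drugs alter gene expression there. Because the doses were not matched, every contrast of statins below holds for the stated doses alone.

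Class I molecules show peptides from inside the cell to CD8 T cells. The proteasome cuts proteins into peptides, and its immune form carries Psmb8, Psmb9 and Psmb10 in place of the constitutive catalytic subunits. The Tap1-Tap2 transporter moves the peptides into the endoplasmic reticulum, where tapasin holds the heavy chain and B2m in place for loading. Interferon gamma is the classical inducer of the set, acting through factors that include IRF1 and the class I transactivator Nlrc5. Cardiomyocytes carry little class I at rest, while endothelial cells and leukocytes carry more.

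The stretches upstream of 5 start sites are shown because the data below compare how these genes vary together. They come from RefSeq on GRCm38.p6, which held promoters for 8 of the 9 genes, in 9 windows of 300 bases. The H2-K1 stretch is chr17:34000334-34000583 on the minus strand and that of H2-D1 is chr17:35262844-35263093 on the plus strand. That of B2m is chr2:122147437-122147686 on the plus strand, and each is the 250 bases before a start site. H2-K1 has 2 windows with different start sites, and its stretch is from chr17:34000284-34000583. That stretch lies within the annotated gene, chr17:33996012-34000619, so it is not upstream of the outermost start. Capitals mark the NF-kB consensus and the core of the interferon-stimulated response element (ISRE).
H2-K1: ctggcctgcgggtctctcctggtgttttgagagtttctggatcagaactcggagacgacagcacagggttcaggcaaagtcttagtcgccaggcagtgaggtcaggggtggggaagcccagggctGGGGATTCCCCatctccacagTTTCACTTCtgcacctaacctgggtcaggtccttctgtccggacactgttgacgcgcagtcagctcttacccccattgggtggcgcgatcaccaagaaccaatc
H2-D1: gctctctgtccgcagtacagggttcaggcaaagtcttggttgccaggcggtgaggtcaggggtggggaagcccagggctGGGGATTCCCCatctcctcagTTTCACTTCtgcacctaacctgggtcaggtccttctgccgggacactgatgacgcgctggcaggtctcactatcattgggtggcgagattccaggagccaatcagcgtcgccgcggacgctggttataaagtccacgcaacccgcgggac
B2m: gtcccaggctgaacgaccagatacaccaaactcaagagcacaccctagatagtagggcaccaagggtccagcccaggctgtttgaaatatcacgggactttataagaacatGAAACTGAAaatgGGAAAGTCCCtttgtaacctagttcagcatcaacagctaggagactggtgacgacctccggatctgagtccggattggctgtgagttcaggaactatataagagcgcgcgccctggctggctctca
The H2-K1 and H2-D1 windows aligned over 242 columns with 89.7% identity, and their longest identical run was 47 bases. Both hold the same NF-kB run, which gives overlapping matches on both strands, and the same ISRE core on the reverse strand close behind it. B2m holds an ISRE core of the other form followed by an NF-kB match.

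Tap1 and Psmb9 are neighbours that read away from each other, with start sites 226 bases apart, so a single stretch lies upstream of both. It is shown because any factor bound there lies before both genes. It is chr17:34187331-34187555, written on the plus strand, which is that of Tap1, with the Y box (CCAAT) in capitals.
Psmb9 to Tap1: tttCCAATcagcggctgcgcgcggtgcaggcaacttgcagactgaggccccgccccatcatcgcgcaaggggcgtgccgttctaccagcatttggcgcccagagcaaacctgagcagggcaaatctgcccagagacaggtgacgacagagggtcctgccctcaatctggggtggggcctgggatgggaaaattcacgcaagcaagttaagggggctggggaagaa
The protein-coding order along the chromosome is Psmb9, Tap1, Psmb8 and Tap2. Searched over whole windows on both strands, either ISRE form (GAAANNGAA or GAANNGAAA, the second form added after the sequences were seen) was in 3 of the 8 genes' windows and in 14.8% of the 32817 RefSeq promoter windows. The first form alone was in 1 of the 8, B2m, against 8.55% of all windows, and the other 2 genes are the near-identical H2-K1 and H2-D1. The NF-kB consensus was in the same 3 genes, against 8.46% of all windows. The interferon gamma-activated core TTCNNNGAA was in 1, Psmb8, against 8.29%, and the Y box was in 6 of the 8, against 37.4%. Those 6 are not independent: the Tap1 and Psmb9 matches are the same CCAAT of the shared stretch, and H2-K1 and H2-D1 are the near-identical pair. A match is a description of the letters and not a bound site.

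Arrays had been scaled to a common trimmed mean of 499.8, but the median of an array was as low as 41.7 (rosuvastatin 3) and as high as 144 (atorvastatin 2). Half-widths of the 95% intervals (over all tested probe sets) had a median of 0.36 log2 units, and the number of arrays limits the precision. Of all single arrays, leaving out control 1 lowered the members' median pitavastatin difference most and leaving out control 2 raised it most, so results are also given without control 1. All levels below are log2(signal + 16), which understates fold changes of dim probe sets, and all p values of group differences come from limma's moderated test, with Benjamini-Hochberg adjustment across the 22518 tested probe sets.

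In pitavastatin hearts all 9 genes had a higher mean than in control hearts, and in atorvastatin hearts 8 of 9 had a lower one. None of these differences passed the test. The differences with pitavastatin ran from 0.19 for B2m to 0.43 for Tap1, with a median of 0.28, against a median of -0.003 over all tested probe sets, 49% of which had the higher mean. With pravastatin 6 genes were higher (median 0.04, background 45%), with rosuvastatin 7 were higher (median 0.11, background 45.9%), and with atorvastatin only Tap1 was higher (median -0.12, background 43.9%). The members vary together between mice, as shown further on, so the 9 genes are not 9 independent observations of a direction. The array scaling matters for these counts. With each array centred on its median, which shifted the median of all tested probe sets by 0.38 for rosuvastatin and 0.10 for pravastatin, the 9 genes stayed higher with pitavastatin, and the number higher with rosuvastatin was 9. Over the 11 alternative settings that kept all 9 genes, the number higher was always 9 for pitavastatin. It was 1 to 6 for pravastatin, 4 to 9 for rosuvastatin and 1 to 4 for atorvastatin.

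Over the 15 tested member probe sets, limma called 0 in every comparison with control, where 0% of all probe sets were called with each of the 4 statins. Pitavastatin had 2 with an unadjusted p under 0.05 (background 1.93%), both of H2-K1 and thus of 1 gene. For pravastatin the count was 0 (3.93%), and for rosuvastatin and atorvastatin it was 1 each (11% and 4.57%), again of H2-K1. The group ranges overlapped for every member gene in each comparison with control, so 0 of 9 stood wholly above the controls, a pattern met by 0.924% of all probe sets for pitavastatin. For pravastatin, rosuvastatin and atorvastatin the background was 1.92%, 1.87% and 0.799%. Without control 1 the 9 genes were still all higher with pitavastatin, but the median difference was 0.17, against 0.36 without control 2. The number that were higher without it was 2 for pravastatin (median -0.04), 5 for rosuvastatin and 1 for atorvastatin (median -0.20).

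**Figure D1:**
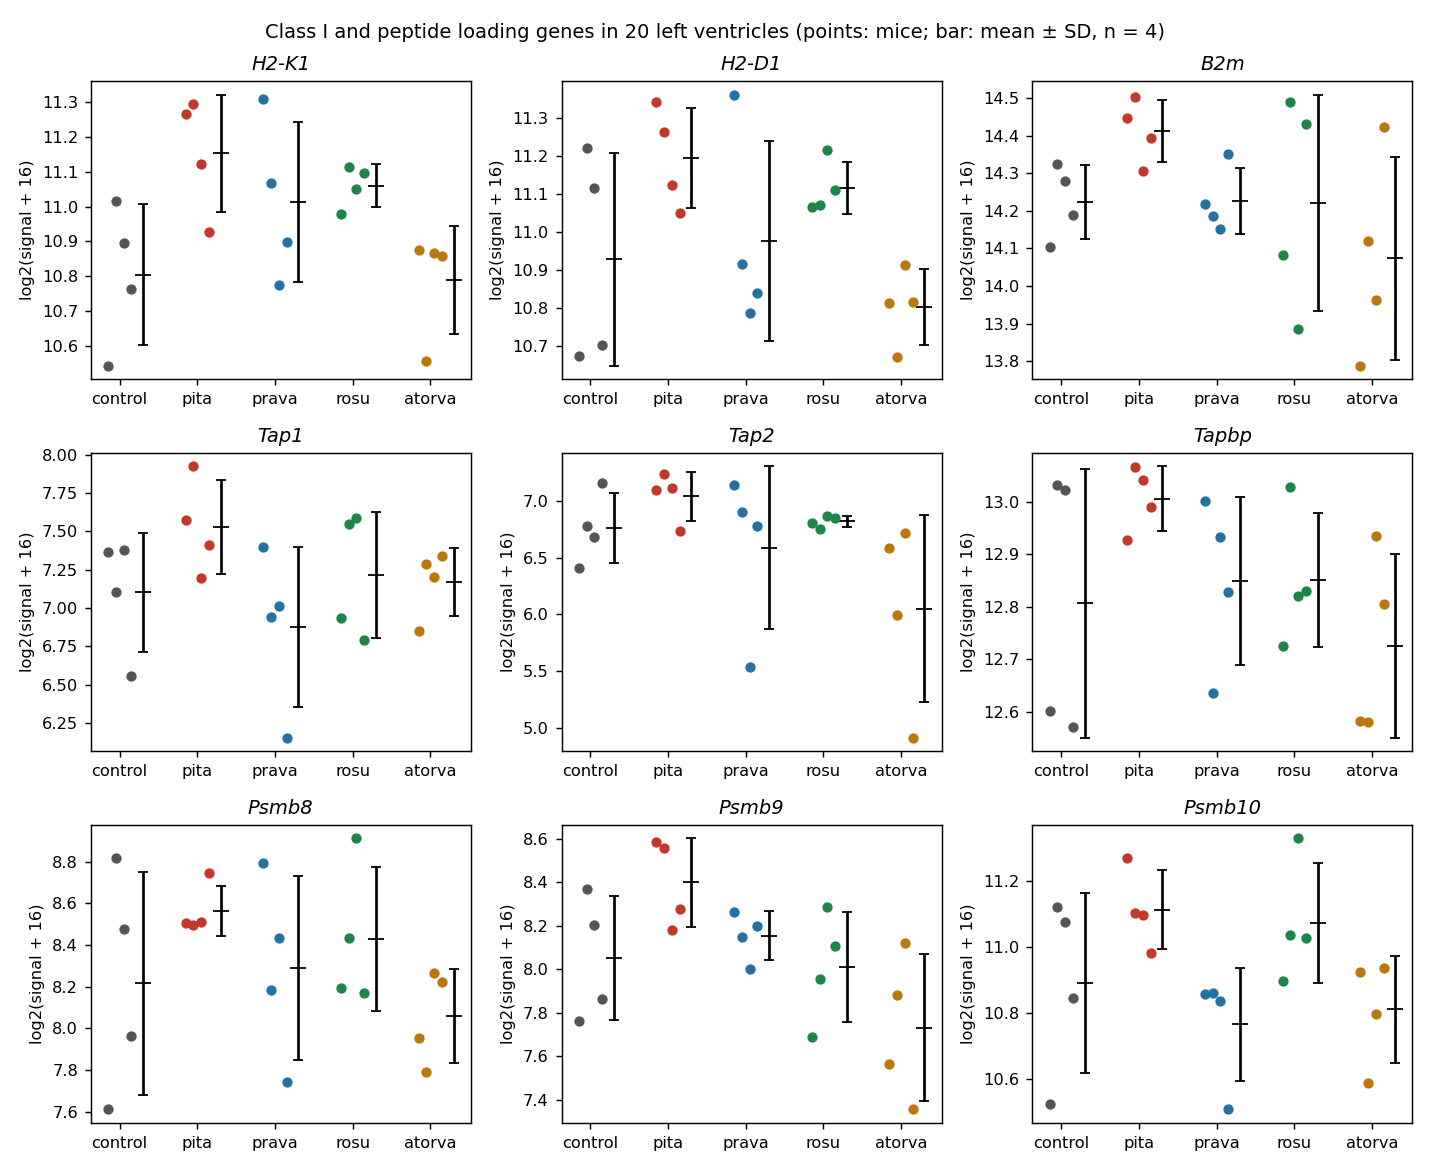
Level of each of the 9 genes, as log2(signal + 16) of its brightest probe set, in 5 groups of 4 mice; points are mice and the bar beside them is the mean ± SD, with a separate vertical scale for each gene. The pitavastatin mean is the highest of the 5 in all 9 panels (in 1 of 9 after centring arrays on their median), while the control mice spread widely in H2-D1, Tapbp and Psmb8.

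H2-K1, a heavy chain that presents peptide, had the smallest p of the 9 genes in the comparisons with control. Its log2 signal was 10.54, 11.01, 10.89 and 10.76 in control mice 1 to 4 and 11.27, 11.29, 11.12 and 10.93 in pitavastatin mice 1 to 4. It was 11.31, 11.07, 10.78 and 10.90 with pravastatin, 10.98, 11.11, 11.05 and 11.10 with rosuvastatin and 10.87, 10.56, 10.87 and 10.86 with atorvastatin. Of the pitavastatin mice 3 lay above every control, while pitavastatin 4 lay within the control range. The difference from control was 0.35 (SE 0.12, 95% interval 0.10 to 0.60), a fold of 1.27, with an unadjusted p of 0.00857 from limma and an adjusted p of 1.00. The unadjusted p ranked 44 among all probe sets. Without control 1 the difference was 0.26.

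A second H2-K1 probe set of nearly the same mean (10.96 for both over all 20 mice) gave other sizes. There the difference from control was 0.18 (SE 0.13) with pitavastatin and -0.30 (SE 0.13) with atorvastatin, where the first gave 0.35 and -0.02. The correlation between them over mice, after removing group means, was 0.52. The remaining tested H2-K1 probe set, a dimmer one, was at 8.45, 8.34, 8.64 and 8.45 in pitavastatin mice and at 7.05, 8.16, 8.35 and 7.20 in control mice. Its lowest pitavastatin mouse thus lay just under its highest control, and its difference was 0.78 (SE 0.29, unadjusted p = 0.0134 from limma). All 3 carry the suffix that Affymetrix gives to probe sets that can also match other genes, and the class I genes are close copies, so signals of H2-K1, H2-D1 and their relatives cannot be fully separated here.

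H2-D1, the other classical heavy chain, showed 2 high and 2 low control mice. Its log2 signal was 10.68, 11.22, 11.11 and 10.70 in control mice, 11.34, 11.26, 11.12 and 11.05 in pitavastatin mice and 10.81, 10.67, 10.91 and 10.82 in atorvastatin mice. With pravastatin it was 11.36, 10.92, 10.79 and 10.84, and with rosuvastatin 11.07, 11.07, 11.22 and 11.11. Controls 2 and 3 reached the pitavastatin and rosuvastatin range and controls 1 and 4 lay with the atorvastatin mice. Pitavastatin hearts were 0.27 above control (SE 0.13, which holds for each statin), and rosuvastatin hearts 0.19. The pravastatin difference was 0.05 and that of atorvastatin -0.12. Without control 1 the rosuvastatin value was 0.10 and the atorvastatin value -0.21. The next brightest H2-D1 probe set followed the first closely over mice (r = 0.90), with 0.21 for pitavastatin and -0.13 for atorvastatin. The 2 dimmer tested ones gave -0.14 and 0.15 with pitavastatin, and the first of these was the only 1 of the 15 member probe sets with a lower mean than control there.

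B2m, the invariant light chain, was at 14.10, 14.32, 14.28 and 14.19 in control mice and 14.45, 14.50, 14.31 and 14.39 in pitavastatin mice. In atorvastatin mice it was 13.79, 14.12, 13.96 and 14.42, and in rosuvastatin mice 14.08, 14.49, 13.88 and 14.43. The pitavastatin mice kept to a narrow range at the top (14.41 ± 0.08, SD, n = 4), and the rosuvastatin and atorvastatin mice spread more widely (SD 0.29 and 0.27). The pitavastatin difference was 0.19 (SE 0.13), the smallest of the 9. The second B2m probe set gave the same size, 0.19 with pitavastatin and -0.17 with atorvastatin, and followed the first over mice (r = 0.85).

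Tap1 and Tap2, the subunits of the peptide transporter, had the widest spread within groups of the 9 genes, with pooled SDs of 0.38 and 0.52. Tap1 was at 7.36, 7.11, 7.38 and 6.55 in control mice and 7.58, 7.92, 7.20 and 7.41 in pitavastatin mice, a difference of 0.43 (SE 0.27). Without control 4, the lowest control, it was 0.24. Pravastatin hearts had the lowest Tap1 mean, 6.88 ± 0.52 (SD, n = 4), with pravastatin 4 at 6.15. Tap2 was at 6.41, 6.78, 6.68 and 7.15 in control mice, 7.09, 7.23, 7.11 and 6.73 with pitavastatin and 6.81, 6.75, 6.86 and 6.85 with rosuvastatin. With atorvastatin it was 6.58, 6.00, 6.71 and 4.92, a difference from control of -0.70 (SE 0.35, adjusted p = 0.964 from limma). The pitavastatin difference of Tap2 was 0.28, and 0.17 without control 1. Atorvastatin 4 had a Tap2 signal of 14.2, and without it the difference was -0.33. Tap2 lay close to the filter, with a mean signal of 90.6 over all mice.

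Tapbp, which holds the empty class I molecule next to the transporter, was at 12.60, 13.03, 13.02 and 12.57 in control mice, again 2 high and 2 low. In pitavastatin mice it was 12.93, 13.07, 13.04 and 12.99, in a narrow range beside the upper 2 controls. The difference was 0.20 (SE 0.12) with pitavastatin and -0.08 (SE 0.12) with atorvastatin. Without control 4 these were 0.12 and -0.16, and without control 2 the atorvastatin value was -0.0055.

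The immunoproteasome subunits gave pitavastatin differences of 0.35 (Psmb8, SE 0.24), 0.35 (Psmb9, SE 0.18) and 0.22 (Psmb10, SE 0.13). Psmb8, the chymotrypsin-like subunit, ran from 7.61 in control 1 to 8.82 in control 2, a wider range than in any statin group. In pitavastatin mice it was 8.51, 8.50, 8.51 and 8.75. Psmb8 and Psmb10 leaned on control 1: without it their pitavastatin differences were 0.15 and 0.10. Psmb9, which replaces the caspase-like subunit, was at 7.76, 8.37, 8.21 and 7.86 in control mice, 8.58, 8.56, 8.18 and 8.28 with pitavastatin and 7.57, 7.88, 8.12 and 7.36 with atorvastatin. It was 8.27, 8.15, 8.0 and 8.20 with pravastatin and 7.69, 7.96, 8.29 and 8.11 with rosuvastatin. The controls thus lay across the ranges of both the pitavastatin mice above and the atorvastatin mice below, which did not overlap each other. Psmb10, which replaces the trypsin-like subunit, was at 10.53, 11.12, 11.08 and 10.85 in control mice, 11.27, 11.10, 11.10 and 10.98 with pitavastatin and 10.86, 10.86, 10.84 and 10.51 with pravastatin.

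**Figure D2:**
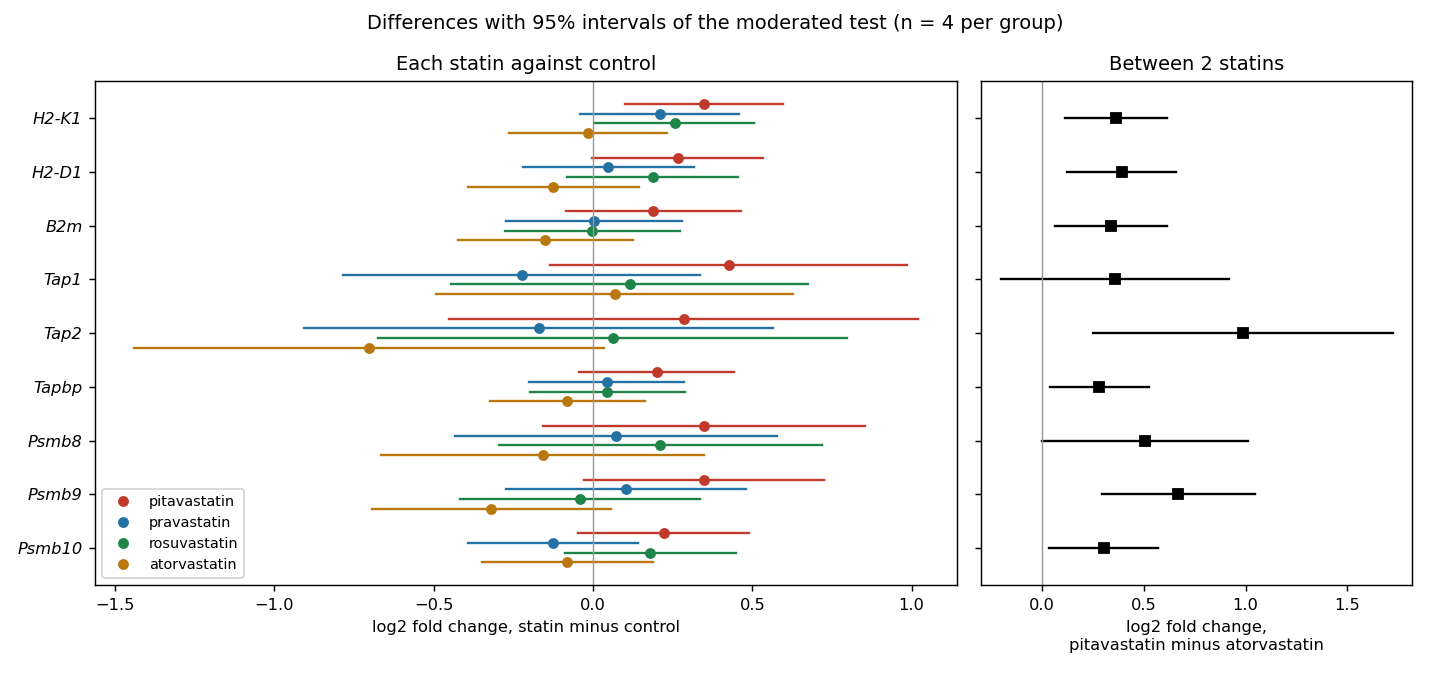
Log2 fold change of each gene with its 95% interval from the moderated test (n = 4 mice per group), for each statin minus control on the left and for pitavastatin minus atorvastatin on the right. All 9 pitavastatin points lie right of 0 with intervals that reach 0 except for H2-K1, and all 9 points of the right panel lie between 0.28 and 0.99.

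Ordered by group mean, pitavastatin was highest for all 9 genes and atorvastatin lowest for 7, the exceptions being Tap1 and Psmb10, lowest with pravastatin. Over all tested probe sets pitavastatin had the highest mean of the 5 groups in 27.4%, atorvastatin the lowest in 21.1%, and both held in 10.5%. The ends of the order were 0.36 apart for H2-K1, 0.67 for Psmb9 and 0.99 for Tap2. Between neighbours in the order only 3 of the 36 gaps were larger than the gene's pooled SD within groups: pravastatin to control for H2-K1, pravastatin to atorvastatin for Tap2 and rosuvastatin to atorvastatin for Psmb9. The other 33 gaps were no larger than the pooled SD of single mice, which is no test and does not show that those groups are alike. The upper end of this order depends on how arrays are scaled: after centring on the array median, pitavastatin was highest for 1 gene and rosuvastatin for 8, and after quantile normalization pitavastatin was highest for 8. At the lower end atorvastatin was lowest for 5 and control for 2 after centring. With 1 array left out atorvastatin was lowest for 5 (without control 2) to 8 (without pravastatin 4).

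The moderated F test over the 5 groups gave an unadjusted p of 0.0226 for H2-K1, 0.0231 for Psmb9, 0.0470 for Psmb10 and 0.0495 for H2-D1, so 4 of 9 genes were under 0.05, against 6.24% of all probe sets. After adjustment limma called 0 of the 15 member probe sets and 0.00444% of all, and the smallest adjusted p among the 9 genes was 0.701.

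All 6 pairs of statins were compared. Against atorvastatin, pitavastatin hearts had the higher mean in all 9 genes (background 55.5%), with a median difference of 0.36 against 0.03 over all probe sets. For 6 genes, H2-K1, H2-D1, Tap2, Psmb8, Psmb9 and Psmb10, every pitavastatin mouse lay above every atorvastatin mouse, a pattern met by 3.81% of all probe sets. For Psmb9 the difference was 0.67 (SE 0.18, 95% interval 0.29 to 1.04, fold 1.59), with an unadjusted p of 0.00144 and an adjusted p of 0.259, the smallest of the 9. H2-D1 gave 0.39 (SE 0.13), H2-K1 0.36 (SE 0.12) and Tap2 0.99 (SE 0.35). Tap2 without atorvastatin 4 gave 0.61. At an unadjusted p under 0.05 there were 7 of 9 genes, and 12.2% of all probe sets, and after adjustment 0 of 15 member probe sets and 0% of all. All 9 stayed higher when any 1 array was left out, with a median between 0.32 and 0.44. With 1 array left out pitavastatin also stayed above pravastatin in 9 genes and above rosuvastatin in 8 to 9, and rosuvastatin above atorvastatin in 8 to 9. Pitavastatin and atorvastatin are the ends of the order described above, from the same data, so this pair is no separate support for it. Adjustment was over the probe sets of 1 pair and not over the 6 pairs.

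The other 5 pairs had smaller median differences. Pitavastatin was higher than pravastatin in 9 of 9 genes (median 0.25, background 55.9%), with Psmb10 alone not overlapping (0.35, SE 0.13, against a background of 4.48%), and Tap1 gave 0.65 (SE 0.27). It was higher than rosuvastatin in 9 of 9 (median 0.16, background 57.8%), but in 1 of 9 after centring on the array median (median -0.19), with 0 separated against 3.79%. Rosuvastatin was higher than atorvastatin in 9 of 9 (median 0.27, background 46.3%), with H2-K1, H2-D1 and Tap2 not overlapping against 1.05%. The pravastatin mean was above that of rosuvastatin in 2 of 9 (median -0.14, background 54.8%), with Psmb10 lower and not overlapping (-0.31, SE 0.13, against 0.981% of all probe sets). It was above that of atorvastatin in 7 of 9 (median 0.17, background 51.4%), from -0.29 for Tap1 to 0.53 for Tap2. These comparisons share groups with one another, and the pitavastatin and atorvastatin mice take part in several. No member probe set passed the test of limma in any pair. Over all probe sets 0.00888% passed between pitavastatin and pravastatin, 0.00444% between pitavastatin and rosuvastatin, and 0% between pravastatin and rosuvastatin, pravastatin and atorvastatin, and rosuvastatin and atorvastatin. The intervals are wide enough that no pair is shown to act alike: for H2-K1 between pitavastatin and rosuvastatin the difference was 0.09 with an SE of 0.12.

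**Figure D3:**
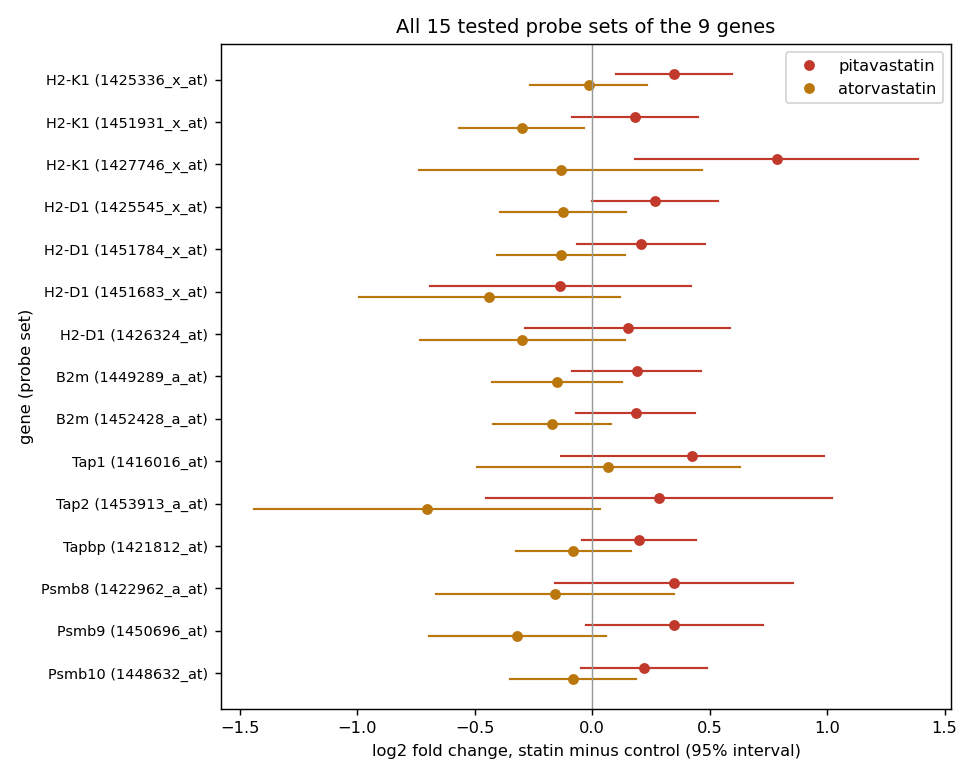
Log2 fold change with its 95% interval (n = 4 mice per group) for all 15 tested probe sets of the 9 genes, pitavastatin minus control in red and atorvastatin minus control in orange. Of the 15, 14 lie right of 0 with pitavastatin and 1 with atorvastatin, and the dimmest H2-K1 probe set at 0.78 lies farthest right.

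Single mice of a group differed in the members as a set. In the control group, control 2 lay above its group mean in 9 of 9 genes and control 3 in 8, while controls 1 and 4 did so in 1 each. The mean over the 9 genes was 9.73 in control 1, 10.20 in control 2, 10.12 in control 3 and 9.85 in control 4, so the controls differed among themselves by more than the median pitavastatin difference. Pravastatin 1 stood above its group in 8 genes, with a mean of 10.26 against 9.81 to 9.98 in the other 3. The 4 pitavastatin mice lay between 10.17 and 10.38, above controls 1, 3 and 4, and 2 of them lay above control 2 as well. The log2 array median was 6.61 and 6.90 in controls 1 and 4 but 6.33 and 6.39 in controls 2 and 3. Pravastatin 1 had the lowest of its group, 5.98. Pitavastatin 3 also had the lowest of its group, 6.33, yet its members lay below their group mean (-0.08). Over mice the group-centred array median had r = -0.52 with the members' mean. Its part in these differences was not tested.

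After each value was taken relative to its group mean, the 36 pairs of member genes had a median Pearson's r of 0.41 over the 20 mice, with 29 positive and a range from -0.36 to 0.87. The median over all pairs of tested probe sets was -0.006. H2-K1 and H2-D1 were the closest (r = 0.87, Spearman's rho = 0.90), and without the 2 mice farthest from the median r was 0.83. Psmb8 and Psmb10 followed with r = 0.79 (rho = 0.72, and 0.79 without 2 mice). H2-K1 and Psmb10 gave 0.68 (rho = 0.71, and 0.70), and H2-D1 and Psmb9 gave 0.62 (rho = 0.64, and 0.60). In permutation tests that shuffled mice within groups, these 4 pairs had Benjamini-Hochberg adjusted p values over the 36 pairs of 0.00288, 0.0279, 0.0386 and 0.0386 for r and 0.00324, 0.0414, 0.0380 and 0.0414 for rho. Closely similar probes can add to the first pair, as described for the heavy chains. H2-D1 and Psmb10 passed for rho (adjusted permutation p = 0.0390) and not for r (0.0654).

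**Figure D4:**
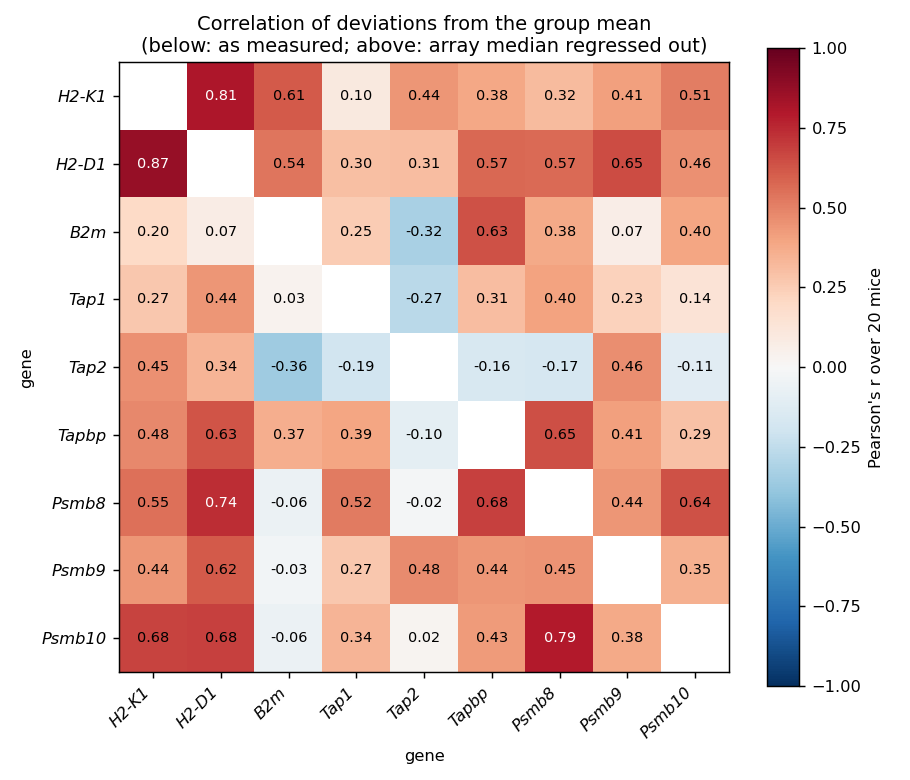
Pearson's r over 20 mice between the deviations of each pair of genes from their group means, below the diagonal as measured and above it with the median signal of the array regressed out. The heavy chains, Tap1, Tapbp and the immunoproteasome subunits form a block of positive values, while below the diagonal B2m and Tap2 each have 4 positive and 4 negative values, from -0.36 to 0.37 for B2m and from -0.36 to 0.48 for Tap2.

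B2m had a median r of 0.003 with the other 8 genes and Tap2 of 0.001, against 0.62 for H2-D1 and 0.53 for Psmb8. Tap1 and Tap2, which form one transporter, had r = -0.19 (permutation p = 0.494). Tap1 and Psmb9, which share the stretch printed above, had r = 0.27 (permutation p = 0.241). The median signal of the array moved with several members: r was -0.67 for Psmb10, -0.65 for Psmb8, -0.62 for H2-D1 and 0.48 for B2m, against a median of -0.04 over all tested probe sets. With it regressed out, the median over the 36 pairs was 0.39 with 31 positive, and H2-K1 and H2-D1 kept r = 0.81. Psmb8 with Psmb10 went from 0.79 to 0.64 and H2-K1 with Psmb10 from 0.68 to 0.51. H2-D1 with Psmb9 went from 0.62 to 0.65, and B2m with H2-K1 from 0.20 to 0.61. No permutation p was computed with the array median regressed out. The median r of B2m with the other 8 genes was then 0.39, close to that of the whole set, and that of Tap2 was -0.14. Centred on each array's median instead, the 36 pairs had a median of 0.83. Centring takes the same amount off every probe set of an array. The median over all pairs of probe sets was not computed on that scaling, so 0.83 has no background beside it. With the array median regressed out that background was 0.002.

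The genes whose deviations were most like the mean of the 9 members over the 20 mice were Gstm5 (r = 0.92), Mrps10 (0.89), 2310039H08Rik (0.89), Nudt13 (0.88), Pak2 (0.88), Ptp4a3 (0.88), Lzic (0.88) and Gpx3 (0.88). They were ranked among 11220 genes, whose median r was 0.07, and 68 genes exceeded 0.8. With the array median regressed out these 8 kept r between 0.82 and 0.89. Their own pitavastatin differences from control ran from 0.01 for Ptp4a3 to 0.26 for Mrps10, and none passed the test of limma.

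Of 109 listed genes around the class I pathway, 81 were tested in 8 lists, and 0 passed in any comparison with control. In the class II list, whose products present peptides from outside the cell, 5 of 6 genes were higher with pitavastatin (median 0.28), from -0.38 for H2-DMb2 to 0.40 for H2-DMa, which helps load class II. With atorvastatin the class II median was -0.07. Of the 29 interferon-stimulated genes, 19 were higher with pitavastatin (median 0.09) and 21 with rosuvastatin (median 0.08). The counts were 12 for pravastatin (median -0.08) and 11 for atorvastatin (median -0.06). With pitavastatin the chemokine Cxcl9 was at 0.38 (SE 0.19) and the chemokine Cxcl10 at -0.32 (SE 0.28). The 8 interferon receptor and kinase genes had a pitavastatin median of -0.006, from -0.16 for Ifnar1 to 0.22 for Ifngr1.

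The 3 constitutive catalytic subunits, Psmb5, Psmb6 and Psmb7, had a median of 0.17 with pitavastatin, with Psmb5 at 0.20 and Psmb7 at 0.00, and were all lower with atorvastatin (median -0.22). The proteasome activators and assembly factors had a median of 0.03 with pitavastatin, from -0.07 for Psmg1 to 0.24 for Psme1, and all 6 were lower with atorvastatin (median -0.11). The chaperones and peptide trimming genes were higher in 8 of 10 with pitavastatin (median 0.12), from -0.12 for the chaperone Hsp90b1 to 0.30 for the chaperone Hspa5. The class I-like genes were higher in 3 of 6, from -0.19 for Cd1d1 to 0.28 for Mr1, which present lipids and vitamin metabolites. The transcription factors of class I were higher in 7 of 13 with pitavastatin (median 0.01), from -0.29 for Creb1 to 0.25 for Rfxank. Nlrc5, named after its value was seen as the class I transactivator, gave 0.17 (SE 0.15) with pitavastatin, and its values were 0.33 for pravastatin, 0.02 for atorvastatin and -0.06 for rosuvastatin. The median over all tested probe sets was between -0.03 and -0.003 in these 4 comparisons.

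**Figure D5:**
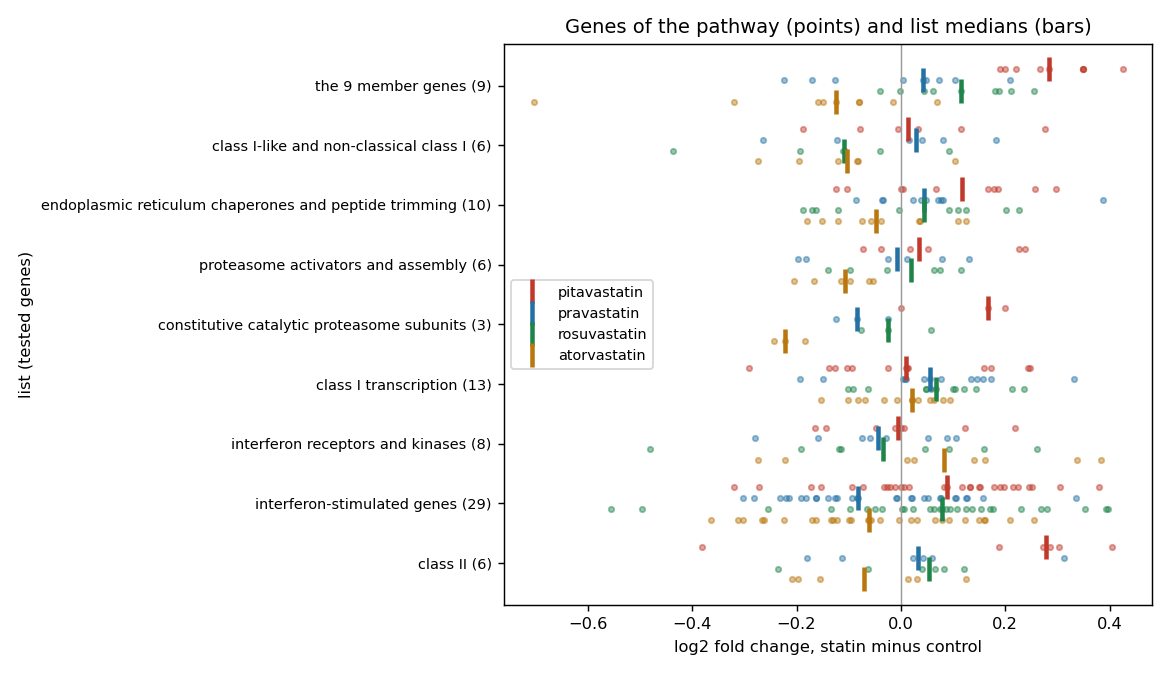
Log2 fold change of each tested gene, statin minus control, for the 9 members and 8 lists of the pathway; points are genes, bars are list medians and colours are statins, with the number of tested genes in brackets. The pitavastatin bars of the 9 members and of class II stand at 0.28, right of the other statins' bars on this scaling, and none of the points passed the test.

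Markers of the cells that could carry these transcripts were measured in the same arrays. The cardiomyocyte markers were all tested, led by Myl3 with a mean signal of 48370, and their summed signal was 322700 to 388200 in control and 350300 to 402300 in pitavastatin mice (ratio 1.06, exact permutation p = 0.286). Of these 10 markers 8 had a higher mean with pitavastatin (median 0.09) and 0 with each other statin. All 4 tested smooth muscle markers were higher with pitavastatin (median 0.16), and the ratio of their sums was 1.14 (exact permutation p = 0.600). Of the 4 atrial genes Myl7 and Sln were below the filter, and both others, Nppa and Myl4, had a higher mean with pitavastatin (median 0.40). The atrial sum was 7281 to 9340 in control and 7400 to 16790 in pitavastatin mice, a ratio of 1.38 (exact permutation p = 0.200). All 10 T and NK cell markers on the array were below the filter, among them Cd3e with a mean signal of 49.3 and Cd8a with 59.8. All 15 macrophage markers were tested. Their summed signal was 28120 to 31760 in control, 27250 to 33280 in pitavastatin and 22510 to 31140 in atorvastatin mice, a ratio to control of 1.04 with pitavastatin (exact permutation p = 0.429) and 0.929 with atorvastatin (exact permutation p = 0.371). Of these 15 markers 10 were higher than control with pitavastatin and 4 with atorvastatin. The 6 pan-leukocyte markers summed to 5335 to 5873 in control and 4822 to 5823 in pitavastatin mice (ratio 0.982, exact permutation p = 0.743), with pravastatin 1 the highest of all mice at 11920. The sum of the 12 endothelial markers had a ratio of 1.05 with pitavastatin (exact permutation p = 0.286). It rests largely on Fabp4, with a mean signal of 21780 where the control sum had a mean of 32660. Of these 12 markers 10 were higher with pitavastatin (median 0.12), 6 with pravastatin, 8 with rosuvastatin and 9 with atorvastatin (median 0.05).

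Over 48 such tests, those of the log2 array median included, the smallest adjusted p was 0.914. The smallest p that 4 against 4 mice can give is 0.0286. The sum of the 8 fibroblast markers reached it with pravastatin (ratio 0.90, exact permutation p = 0.0286, adjusted p = 0.914), where 0 of the 8 were higher. With pitavastatin 2 of these 8 were higher, with a ratio of 0.962 (exact permutation p = 0.457). Over mice, the group-centred macrophage sum had r = 0.44 with the mean of the 9 members and the pan-leukocyte sum 0.42. Pravastatin 1, highest in the pan-leukocyte sum, also had the highest mean standardised deviation of the 9 members (1.04). With pravastatin the pan-leukocyte sum had an SD of 3280, against 259 to 837 in the other groups. The macrophage sum had an SD of 7010 there, against 1560 to 3730. Neither r was computed without pravastatin 1, so both may rest largely on that mouse. The sums of the T and NK cell and of the B cell markers had r = -0.42 and r = -0.27. These sums hold much dim signal: all 10 T and NK cell markers were below the filter, and only 2 of the 5 B cell markers were above it. The array median itself had r = -0.52 with the mean of the members. No r of a marker sum was computed with the array median regressed out, so these values are no measure of cell content. The part of these cells in the members' values was not tested. In a bulk sample fewer cells of a type and less RNA per cell cannot be told apart.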

How the data were processed

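The authors deposited 1 linear intensity per probe set and array. MAS5 is named in the submitters' processing notes, without a version. The arrays were Affymetrix whole-genome mouse arrays, and RNA was amplified before labelling, per the labels' protocols. From these, 64 control probe sets were left out, 16 was added, log2 was taken and the brighter 50% of 45037 probe sets by mean over all 20 arrays were kept. Gene symbols come from the platform annotation (34945 probe sets with 1 symbol, 932 with several, 9160 with none), and 34741 matched the reference gene table.

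Differences were fitted with limma 3.58.1 in R 4.3.3, with 1 mean per group, all 20 arrays and a trended prior (15 residual and 4.23 prior degrees of freedom), and adjusted by Benjamini-Hochberg over 22518 probe sets at 0.05. Correlations used values minus the group mean, with 100000 shuffles of mice within groups (Python 3.11.15, NumPy 2.4.6). For marker sums and the log2 array median a two-sided exact permutation test over the 8 mice of each comparison was used (SciPy 1.17.1). The scripts were tested on simulated data. The members and lists were chosen with earlier results of these data known. Named besides the members were the genes highest and lowest with pitavastatin in each list and the 8 genes most correlated with the members' mean. The replicates are separate mice per the labels. Alternatives were quantile normalization, centring on the array median, pseudocounts of 1 and 64, no filter and the brighter 30%, no trend, array weights, a replicate block, 1 probe set per gene, only the groups compared, the array median as covariate, and leaving out each array.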

Additional observations from a re-analysis of the deposited data

Results flagged for a closer look

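Within the 45 sets of 4 mice formed by 9 genes and 5 groups, 3 single mice stood far from the rest of their group, with a gap to the nearest mouse that exceeded Dixon's 95% critical share of the group's range. Chance alone gives about 1 such mouse in 20 sets. H2-K1 in atorvastatin 2, the array with the highest median signal, was the lowest of its group at 10.56, with the nearest mouse at 10.86, and in the second H2-K1 probe set the same mouse was again the lowest at 10.47, beside atorvastatin 1 at 10.53. Psmb8 in pitavastatin 4 was the highest of its group at 8.75, with the nearest mouse at 8.51. Psmb10 in pravastatin 4 was the lowest of its group at 10.51, with the nearest at 10.84, and the same mouse was lowest in its group for Psmb8 and Tap1.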

How the results depend on the processing

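The count of member probe sets past the threshold of limma was 0 under each of the alternative settings in every comparison, the pairs of statins and the F test included, so these settings could not end a call. The pitavastatin median stayed between 0.19 and 0.33 over 12 settings and between 0.17 (without control 1) and 0.36 (without control 2) when 1 array was left out, and no gene changed direction. The median of the 9 genes over left-out arrays ran from -0.08 to 0.12 for pravastatin, from 0.0089 to 0.21 for rosuvastatin, and from -0.20 to -0.0055 for atorvastatin. Centring on the array median gave a rosuvastatin median of 0.50, and a median correlation of 0.83, against 0.53 without centring on group means and 0.34 to 0.44 over left-out arrays. The 0.83 has no background over all pairs on that scaling. The cause of these shifts was not tested.

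Some differences from control changed sign. With quantile normalization rosuvastatin gave 0.11 for B2m and 0.11 for Psmb9. Centring on the array median gave 0.38 and 0.34 for the same genes, and 0.074 for H2-K1, 0.0078 for Tapbp and 0.0077 for Psmb10 with atorvastatin. Array weights gave -0.10 for H2-D1, -0.039 for B2m, -0.041 for Tapbp, -0.10 for Psmb8 and -0.013 for Psmb9 with pravastatin, and 0.012 for B2m, -0.093 for Tap1, -0.060 for Tapbp and -0.091 for Psmb8 with rosuvastatin. With the array median as covariate Psmb8 was at -0.0059 with pravastatin, and rosuvastatin gave 0.11 for B2m, -0.061 for Tap1, -0.044 for Tap2, -0.026 for Tapbp and -0.089 for Psmb8.

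Leaving out 1 array gave ranges that span 0. With pravastatin they were -0.081 to 0.14 for H2-D1, -0.038 to 0.036 for B2m, -0.41 to 0.017 for Tap1, -0.35 to 0.18 for Tap2, -0.036 to 0.12 for Tapbp and -0.13 to 0.27 for Psmb8. With rosuvastatin they were -0.091 to 0.11 for B2m, -0.068 to 0.26 for Tap1, -0.053 to 0.19 for Tap2, -0.034 to 0.12 for Tapbp and -0.14 to 0.066 for Psmb9. With atorvastatin they were -0.10 to 0.062 for H2-K1, -0.11 to 0.17 for Tap1 and -0.36 to 0.042 for Psmb8.

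The replicate numbers in the titles were also fitted as a block, which left the pitavastatin median at 0.28 and 0 member probe sets called. Of 40 same-number pairs of arrays from different groups, 19 had a correlation over 0.1 (median 0.079). Among 120 other-number pairs 46 did (median -0.038), and 7 of 20 arrays correlated best with their own number. These values do not settle whether the numbers mark a pairing or a batch. Signal over background limits Tap2 and Tap1 most, whose signals went down to 14.2 and 55.2.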
